A study of Mus musculus with 5 samples.

Results

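Endothelial genes were examined in the cells that were sorted as keratinocytes out of mouse skin wounds on day 5 of healing. A list of 42 symbols was used, chosen as genes of endothelial junctions, receptors, adhesion, lymphatic identity and transcription. Of these, 28 were analysed here, out of 10664 genes in the authors' comparison of the genotypes. The other 14 (Flt4, Tek, Tie1, Cldn5, Robo4, Podxl, Clec14a, Mmrn2, Sox17, Erg, Fli1, Tal1, Nos3 and Apold1) were not analysed here. The 28 are those held in the authors' comparison, which was filtered by a rule that the sources used here do not give. If the filter acted on low values, a gene low in 1 genotype may have passed through the other. Counts over the 28 are therefore descriptions and not counts over the whole list.

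The study compared mice carrying K14Cre-ER with Nrf2 flox/flox (conditional knockout, cKO, 2 samples) with littermates carrying K14Cre-ER with Nrf2 +/+ (WT, 3 samples). In both groups the keratin 14 promoter drives an inducible Cre, so the deletion is directed at basal keratinocytes and not at endothelial cells. The sources used here do not give the inducing agent, the age and sex of the animals or whether each sample is 1 animal. The cells came from a ring of tissue around the wound, and were sorted as live, CD49f-positive and negative for a mix of antibodies to blood lineages. All values rest on 1 comparison made by the authors, which holds no value per sample, so no spread between samples can be shown for any gene. Depth per library was not analysed here.

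Endothelial cells line blood and lymphatic vessels and are joined by VE-cadherin. They respond to VEGF and angiopoietin from the surrounding tissue, and in a healing skin wound they sprout into the new tissue. CD49f, the integrin chain encoded by Itga6, binds laminin and is known on basal keratinocytes and also on endothelial cells. Whether any antibody of the blood-lineage mix also binds endothelial cells was not examined here.

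Most of the analysed endothelial genes were lower in cKO. Going by the authors' deposited table, 17 of the 28 were lower at an FDR (the Benjamini-Hochberg adjusted p over all genes) under 0.05 and 0 were higher, while 25 of the 28 had an unadjusted p under 0.05. Over all 10664 genes 2.15% were called lower and 0.459% higher, and 892 had an unadjusted p under 0.05. Among the 6094 genes within the same range of mean level, 1.31 to 33.7 CPM (reads scaled to the library total), 3.35% were called lower and 0.656% higher. The median log2 fold change of cKO relative to WT was -3.25 for the 28 genes and 0.00 for all genes, and 1.76% of all genes lay at or below -3.25. Values lay below 0 for 26 of the 28 and for 49.7% of all genes. Under other rules the genes called lower were 12 of 28 at an FDR under 0.01 (1.17% of all genes), 10 of 28 under the Benjamini-Yekutieli adjustment (0.919%), 11 of 18 with genes under 5 CPM left out (0.98%) and 15 of 26 with near-floor genes left out (1.8%). In bulk RNA, fewer cells of a type and less RNA per cell cannot be told apart.

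**Figure D1:**
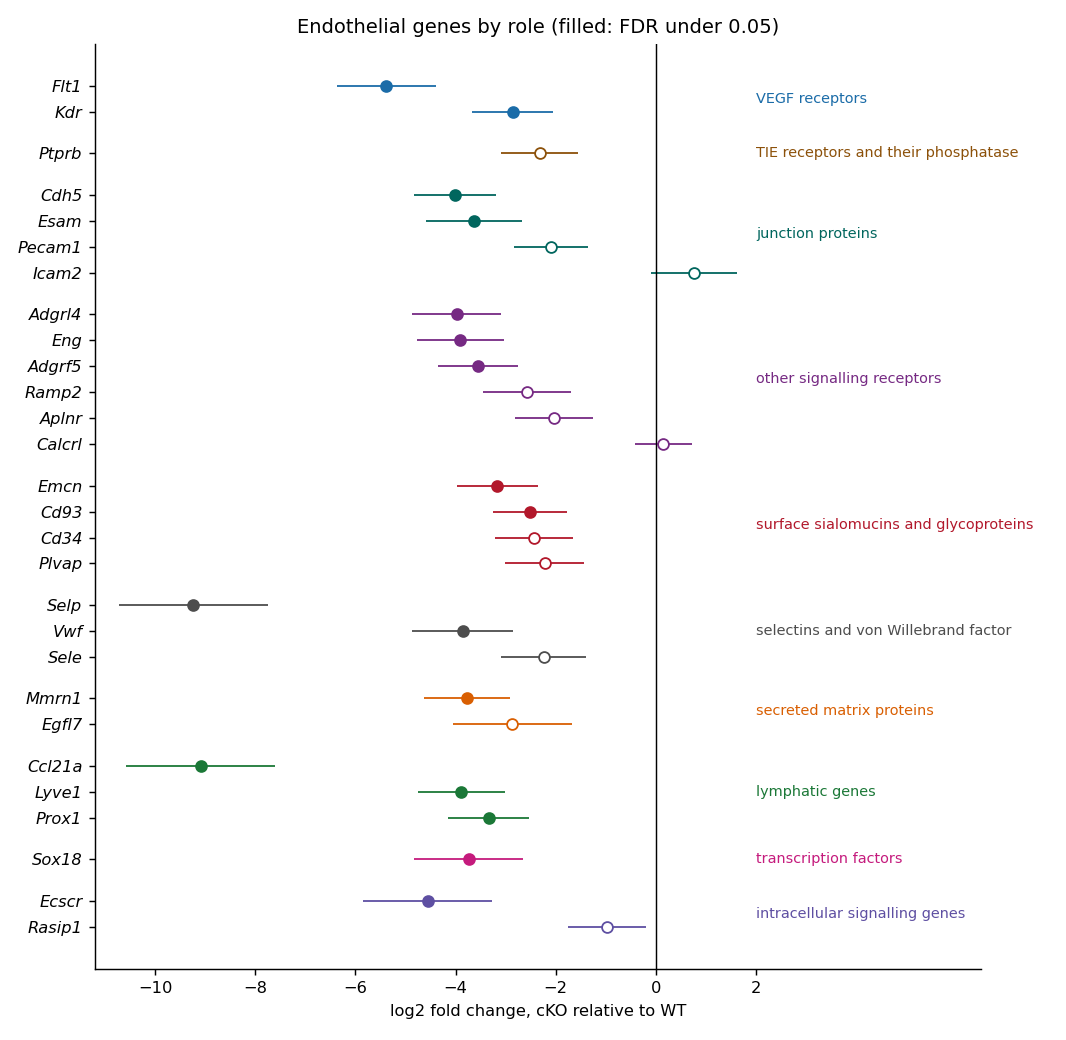
Log2 fold change of cKO relative to WT for the 28 analysed endothelial genes, ordered by role. Points are the authors' values, filled where the FDR was under 0.05, and bars are 1 standard error implied by the deposited p-value, which is not a spread between samples. Values ran from -9.24 (Selp) to 0.76 (Icam2), and 26 of the 28 lay below 0.

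Promoter sequences are shown for the called genes with the smallest p-values at a mean level of 5 CPM or more. Selp and Ccl21a among them were near the floor in cKO, so their falls are known by direction and not by size. The windows run from 250 bases before to 50 bases after the start site (RefSeq, GRCm38.p6), 5′ to 3′ on the gene's strand. Capitals mark AGGAAG on either strand, letters found at sites of the ETS family of transcription factors, to which the endothelial regulators Erg and Fli1 belong.
Selp, chr1:164115014-164115313, plus strand: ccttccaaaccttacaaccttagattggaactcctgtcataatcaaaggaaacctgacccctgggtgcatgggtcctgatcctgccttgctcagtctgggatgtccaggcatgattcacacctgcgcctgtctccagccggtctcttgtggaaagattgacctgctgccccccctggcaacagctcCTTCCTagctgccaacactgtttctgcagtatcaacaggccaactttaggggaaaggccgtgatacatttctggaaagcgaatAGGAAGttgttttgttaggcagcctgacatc
Ccl21a, chr4:42773942-42774241, minus strand: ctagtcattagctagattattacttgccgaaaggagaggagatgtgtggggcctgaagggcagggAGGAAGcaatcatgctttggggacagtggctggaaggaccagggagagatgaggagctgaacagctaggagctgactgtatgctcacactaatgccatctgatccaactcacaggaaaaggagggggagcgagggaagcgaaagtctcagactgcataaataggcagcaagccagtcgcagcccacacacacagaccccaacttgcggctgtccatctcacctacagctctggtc
Flt1, chr5:147725962-147726261, minus strand: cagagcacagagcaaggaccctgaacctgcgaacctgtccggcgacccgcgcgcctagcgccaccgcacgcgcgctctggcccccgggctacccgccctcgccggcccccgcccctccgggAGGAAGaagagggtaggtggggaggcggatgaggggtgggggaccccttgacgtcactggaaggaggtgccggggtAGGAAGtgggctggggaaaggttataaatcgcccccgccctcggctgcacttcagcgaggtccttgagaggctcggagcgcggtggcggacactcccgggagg
The letters began 64 bases before and 19 bases after the start site in Selp, 185 bases before it in Ccl21a, and 129 and 53 bases before it in Flt1. Across the reference, 35.4% of 32851 windows held AGGAAG on either strand. Windows were found for 15 of the 28 genes, some with several start sites, and 13 of their 19 windows (68.4%) held it. For the genes called lower it was 7 of 12 windows (58.3%). TGANNNNGC is a loose form of the core of the antioxidant response element that NRF2 binds, with the fourth base left free. It was in 7 of the 19 windows (36.8%) and in 41.3% of all windows, so a match need not be such an element. ACAAAG, of the SOX family, was in 3 of the 19 (15.8%) against 18.7% of all, and AGATAA, a motif of the GATA family, in 0 of the 19 against 11.2%. Each motif was counted on both strands and by itself, whether or not it overlapped another. A match in such a window is a description of letters and not of binding.

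Both analysed VEGF receptor genes fell. Flt1 (chromosome 5, 147561604 to 147726011, minus strand, mm10), whose receptor binds VEGF tightly and holds it back from Kdr, fell by 5.39 on the log2 scale, with an average of 9.97 CPM (FDR 2.75e-05, the authors' deposited table). Kdr (chromosome 5, 75932827 to 75978458, minus strand), the main signalling receptor for VEGF, fell by 2.86 at 9.10 CPM (FDR 0.0214, the authors' deposited table). The levels implied by these values were 19.5 CPM in WT and 0.465 CPM in cKO for Flt1, and 16.0 and 2.20 CPM for Kdr. Implied levels rest on an equal weight of WT and cKO in the mean. The log2 fold changes of Flt1 and Kdr differed by -2.53, with a standard error of 1.28 implied by the p-values if the genes varied independently. Of the genes around the angiopoietin receptors, Ptprb alone was analysed, a phosphatase that restrains the angiopoietin receptor. Its value was -2.32 at 12.4 CPM in the authors' deposited table, short of the threshold (FDR 0.0741).

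Of the 4 analysed junction genes 2 were called lower, 1 had a lower value short of the threshold and 1 a value above 0. VE-cadherin, encoded by Cdh5 (chromosome 8, 104101625 to 104144511, plus strand) and the defining adhesion protein of endothelial junctions, fell by 4.01 with an average of 24.0 CPM (FDR 0.000283, the authors' deposited table). Esam, an adhesion molecule of endothelial tight junctions, fell by 3.64 at 3.25 CPM (FDR 0.0108, the authors' deposited table). The implied level of Cdh5 was 45.2 CPM in WT and 2.80 CPM in cKO, and that of Esam 6.01 and 0.483 CPM. Pecam1, which joins neighbouring endothelial cells and is also made by leukocytes and platelets, had a value of -2.10 at 18.02 CPM and missed the threshold (FDR 0.118, the authors' deposited table). Its difference from Cdh5 was 1.91 on the log2 scale, with an implied standard error of 1.10. Icam2, a ligand of leukocyte integrins that leukocytes and platelets also carry, had a value of 0.76 at 2.23 CPM in the authors' deposited table (FDR 1). Cdh5 lay 4.78 below Icam2, with an implied standard error of 1.19.

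Among the other signalling receptors 3 of 6 were called, with like falls. The authors' deposited table gave a fall of 3.91 for Eng (FDR 0.00119), which encodes endoglin, a co-receptor for BMP and TGF-beta ligands that macrophages can also make. The adhesion-class receptor genes Adgrf5 and Adgrl4 fell by 3.55 and 3.98, at mean levels of 18.1 and 8.12 CPM (FDR 0.00159 and 0.00130, the authors' deposited table). Implied levels went from 19.2 CPM in WT to 1.28 CPM in cKO for Eng, from 33.4 to 2.85 CPM for Adgrf5 and from 15.3 to 0.971 CPM for Adgrl4. Aplnr, the receptor for apelin, had -2.04 at 7.65 CPM in the authors' deposited table (FDR 0.200). The 2 partners of the adrenomedullin receptor stood apart. Calcrl, its receptor chain, had 0.15 at 31.8 CPM, and Ramp2, the accessory chain that gives it its ligand preference, had -2.58 at 3.54 CPM (FDR 1 and 0.0967, the authors' deposited table). The difference between Ramp2 and Calcrl was -2.73, with an implied standard error of 1.05. Part of Ramp2's exons overlap those of Vps25 on the same strand, and Eng overlaps Fpgs on the opposite strand. In the authors' deposited table Vps25 had -0.09 at 29.6 CPM and Fpgs 0.53 at 1.01 CPM.

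The sialomucins and other surface glycoproteins had 2 of 4 called, within a narrow range of values. Emcn, an endothelial sialomucin of capillaries and veins, fell by 3.17 at 10.8 CPM (FDR 0.00758), and Cd93, an adhesion receptor of sprouting endothelium that myeloid cells also carry, fell by 2.52 at 33.7 CPM (FDR 0.0305, the authors' deposited table). The call of Cd93 ended when genes under 5 CPM were left out and the p-values adjusted again (recomputed FDR 0.0574). Cd34, which marks capillary endothelium and, in mouse skin, stem cells of the hair follicle bulge, had -2.43 at 9.65 CPM in the authors' deposited table (FDR 0.0652). Plvap, which forms the diaphragms of fenestrated capillaries, had -2.22 at 7.62 CPM (FDR 0.126, the authors' deposited table). Implied levels fell from 57.4 CPM in WT to 10.0 CPM in cKO for Cd93 and from 19.5 to 2.17 CPM for Emcn.

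Of the adhesion genes stored in or induced on activated endothelium, 2 of 3 were called. Selp (chromosome 1, 164115264 to 164150026, plus strand), which encodes the P-selectin that endothelial cells and platelets store and release, had the lowest fold change of the 28 genes. The fall was 9.24 on the log2 scale at 5.99 CPM (FDR 8.28e-07, the authors' deposited table), the sixth smallest p of all genes. Vwf, von Willebrand factor, fell by 3.86 at 3.74 CPM (FDR 0.00867), and Sele, the E-selectin gene that cytokines induce, had -2.24 at 4.30 CPM (FDR 0.185, the authors' deposited table). The implied cKO level of Selp was 0.0199 CPM, near the floor of the table, whereas Sele stood above it. For 56 genes the implied level in cKO was under 0.05 CPM. Near the floor a fold change can depend on a small value added in its fitting, so it gives the direction of Selp and not its size.

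All 3 lymphatic genes were called lower. Ccl21a (chromosome 4, 42772860 to 42773993, minus strand), a chemokine by which lymphatic endothelium draws in dendritic cells, fell by 9.09 at 5.39 CPM (FDR 9.98e-07, the authors' deposited table). Its implied cKO level was 0.0197 CPM, also near the floor, and near-identical copies of the gene make its reads uncertain. Lyve1, a hyaluronan receptor of lymphatic vessels and some macrophages, fell by 3.88 at 7.59 CPM (FDR 0.00132, the authors' deposited table). Prox1 (chromosome 1, 190118035 to 190170714, minus strand), the transcription factor that sets lymphatic identity, fell by 3.34 at 5.00 CPM (FDR 0.00394, the authors' deposited table). The implied levels of Lyve1 were 14.2 CPM in WT and 0.963 CPM in cKO, and those of Prox1 were 9.09 and 0.899 CPM. The matrix protein gene Mmrn1, which lymphatic endothelium and platelets make, fell by 3.78 at 8.63 CPM (FDR 0.00167, the authors' deposited table). With Mmrn1 the 4 lymphatic genes had a median of -3.83, and the other 24 genes had -2.86, of which 13 were called. This difference was not tested.

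The remaining genes were at low levels. Sox18, a transcription factor of blood and lymphatic vessel development and the 1 analysed regulator among 5 listed beside Prox1, fell by 3.74 at 2.12 CPM (FDR 0.0285, the authors' deposited table). Ecscr, a membrane protein gene of endothelial cells, fell by 4.56 at 1.41 CPM (FDR 0.0208, the authors' deposited table). Egfl7, a secreted endothelial protein, had -2.87 at 1.31 CPM (FDR 0.289) and Rasip1, which organises the vessel lumen, had -0.97 at 3.46 CPM (FDR 1), the authors' deposited table. Egfl7 shares exon sequence with Agpat2 on the opposite strand, and the sources used here do not say whether reads were counted by strand.

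**Figure D2:**
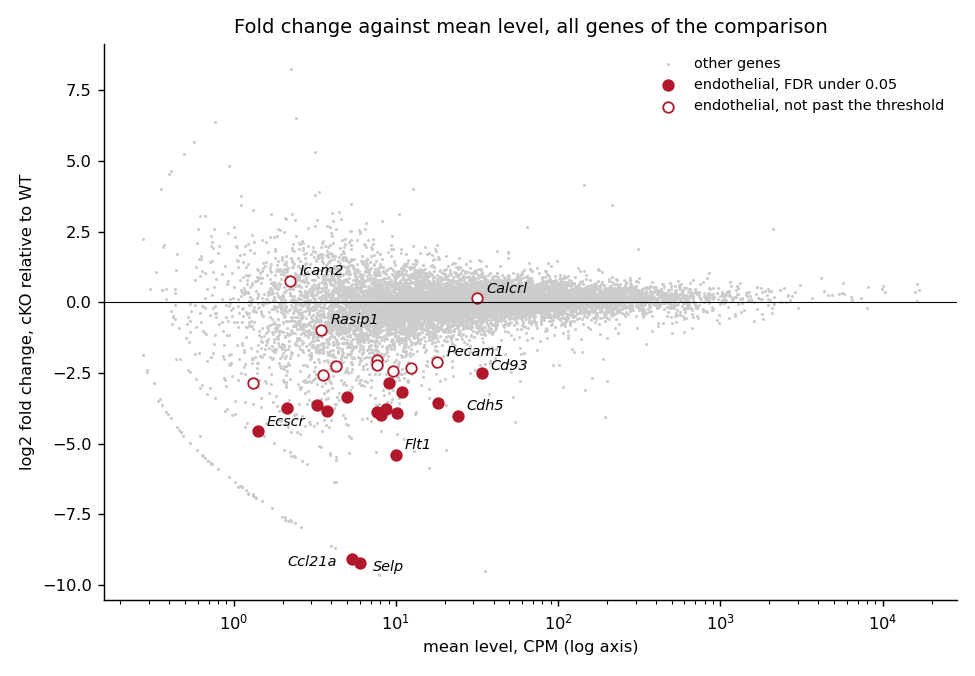
Log2 fold change of cKO relative to WT against mean level in CPM (log axis) for all 10664 genes. Grey points are other genes and red points the 28 endothelial genes, filled where the FDR was under 0.05. Selp and Ccl21a lie on the lower curve formed by genes whose implied cKO level is near the floor, and Calcrl at 31.8 CPM lies within the cloud around 0.

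The calls were set beside those of all genes at like levels. At 5 to 20 CPM, 10 of 15 endothelial genes were called lower, against 2.58% of all 3332 genes there, and the smallest called fall of any gene in that range was 2.43. Kdr, with -2.86 at 9.10 CPM, was past the threshold there, and Cd34, with -2.43 at 9.65 CPM in the authors' deposited table, was not. Under 5 CPM, 5 of 10 endothelial genes were called lower, against 7.32% of all 1681 genes there, and the smallest called fall of any gene was 2.68. The 8 genes Ptprb, Pecam1, Aplnr, Ramp2, Cd34, Plvap, Sele and Egfl7 had unadjusted p-values under 0.05 without passing the adjustment. The missing calls do not show that these genes were alike in both genotypes.

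The values varied among the genes, for most of them within their implied errors. The standard errors implied by the p-values ran from 0.58 (Calcrl) to 1.49 (Ccl21a) on the log2 scale, with a median of 0.85. The implied 95% interval held the median of the 28, -3.25, for 22 genes. Of the others, Flt1 lay below it, and Icam2, Calcrl and Rasip1 lay above it with intervals that held 0. Selp and Ccl21a also had values below it, but both were near the floor in cKO, where the size of a fold change and its interval are not reliable. These errors are not each gene's own spread. For the 12 genes with at least 3 others of like fold and level (within 0.15 on both log2 scales), the implied error differed from the median of those others by a median of 2.601% and by at most 26.7%, for Icam2. All genes share the same libraries, so they are not independent of each other.

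**Figure D3:**
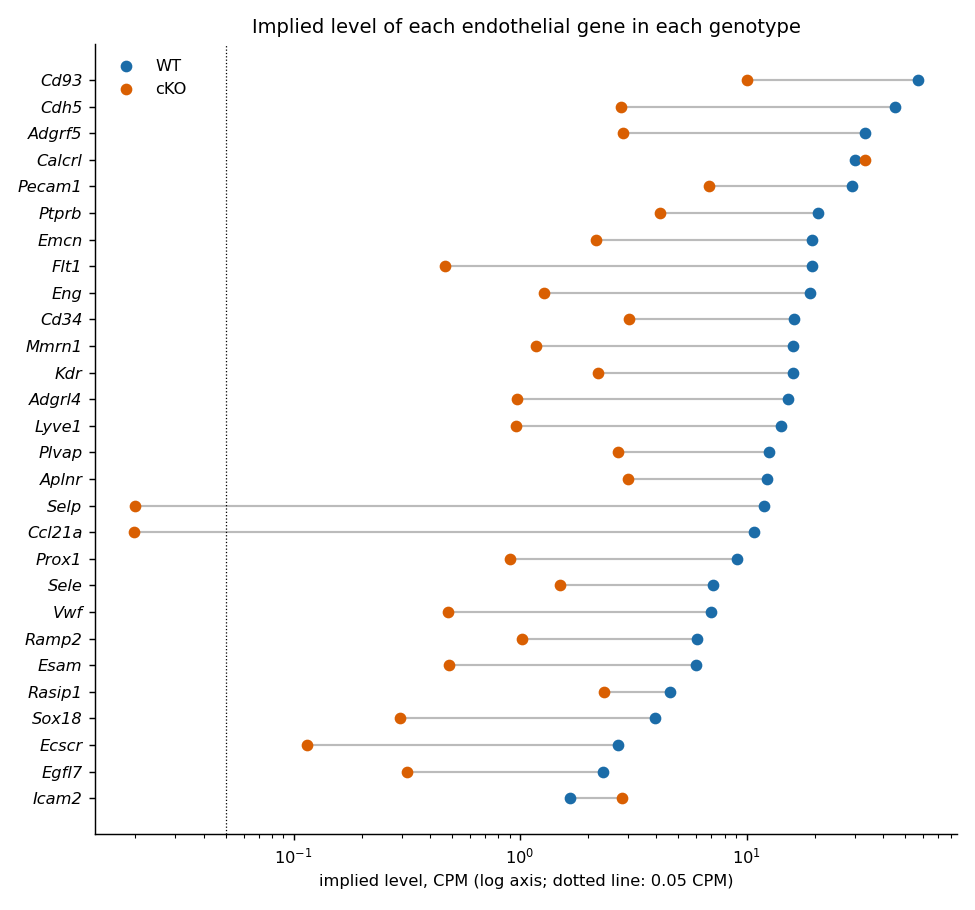
Level of each endothelial gene in WT (blue) and cKO (orange), in CPM on a log axis, computed from the authors' mean level and fold change on the assumption that both genotypes weigh alike. Lines join the values of a gene, with no error shown. The orange point lies left of the blue one for 26 of the 28 genes, and Selp and Ccl21a lie left of the dotted line at 0.05 CPM in cKO.

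Summed over the 28 genes, the implied level was 450.2 CPM in WT and 88.3 CPM in cKO, a ratio of 5.10. With samples weighted alike (3 WT and 2 cKO) the sums were 393.8 and 82.4 CPM, a ratio of 4.78. The largest part of the cKO sum was Calcrl, at 33.5 CPM. The 5 analysed genes of the 8 taken as defining endothelial markers (Cdh5, Kdr, Flt1, Pecam1 and Emcn) summed to 129.4 CPM in WT and 14.5 CPM in cKO, a ratio of 8.95. None of these 5 was near the floor in cKO. The level is labelled as log2 CPM, while the title speaks of TPM, so whether gene length enters it is not known. Levels of different genes were therefore not ranked.

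Basal keratinocyte genes, which mark the cells the sort was aimed at, gave no call, against 2.15% of all genes called lower and 0.459% higher. Of 14 such genes 0 passed, and 0 had an unadjusted p under 0.05, with 9 values below and 5 above 0, a median of -0.32 and a summed implied level of 6394 CPM in WT and 6167 CPM in cKO. Itga6, the gene of the sorting antigen, had -0.49 at 466.5 CPM in the authors' deposited table (FDR 1). The targeted gene Nfe2l2, which encodes NRF2, had -1.99 at 189.0 CPM and missed the threshold (FDR 0.126, the authors' deposited table). Y-linked Ddx3y fell by 9.51 and X-linked Xist rose by 2.58 in the authors' deposited table. Implied levels were 70.5 CPM in WT and 0.0969 CPM in cKO for Ddx3y, and 606 and 3615 CPM for Xist. The sex of each animal is not given, but by these values WT held more male RNA than cKO. Sex was therefore not balanced between the genotypes, and its part in the endothelial values was not tested.

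Part of the fibroblast and melanocyte markers were also called lower, and no marker of pericytes and vascular muscle was, against 2.15% of all genes. Of 12 fibroblast markers 7 were analysed and 5 were called lower, with a median of -2.67 and a summed implied level of 1264 CPM in WT and 353.8 CPM in cKO. The collagen and proteoglycan genes Dcn, Col3a1, Col1a2 and Col1a1 were called lower in the authors' deposited table, at -4.23, -4.05, -3.12 and -2.67. Postn and Fbln1, also on that list, had 0.19 and 0.04 in the authors' deposited table. All 3 analysed melanocyte markers of 6 were called lower (median -2.38, summed implied level 108.2 CPM in WT and 20.7 CPM in cKO). Of 14 markers of pericytes and vascular muscle, which wrap the vessel wall, 7 were analysed and 0 called (median -1.18), with 2 at an unadjusted p under 0.05 and summed implied levels of 184.7 CPM in WT and 157.9 CPM in cKO. Mcam, which endothelial cells also make, and Cspg4 had -2.13 and -1.69 in the authors' deposited table. Acta2, Tagln and Rgs5 had -1.18, -1.35 and -0.94 there, Notch3 had -0.05 and Ndufa4l2 had 0.44. The sums of this list rest largely on Ndufa4l2, at implied levels of 63.0 CPM in WT and 85.5 CPM in cKO. Notch3 followed, at 41.3 and 39.8 CPM. The part of a different share of these cells in the endothelial values was not tested.

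Several endothelial genes are also made by blood cells, and their values were compared with the rest. The 9 analysed genes taken as also made by leukocytes, platelets or blood progenitors had 6 called lower and a median of -3.78. These were Pecam1, Icam2, Eng, Cd34, Cd93, Selp, Vwf, Mmrn1 and Lyve1. The other 19, some of which blood cells may also make, had 11 called lower and a median of -3.17. Of 9 platelet and megakaryocyte markers 1 was analysed, Itga2b, with -0.89 at 0.582 CPM in the authors' deposited table. Of 10 general leukocyte markers 1 was analysed, Lcp1, with -2.03 at 3.78 CPM (FDR 0.244, the authors' deposited table). Of 10 macrophage markers 2 were analysed, Cd68 and Itgam, with 1.46 and -0.61 in the authors' deposited table, and a summed implied level of 8.54 CPM in WT and 7.68 CPM in cKO. Of 7 mast cell markers Kit was analysed, which melanocytes also make, with -1.99 at 7.46 CPM in the authors' deposited table, and of 6 red cell markers Hba-a1 and Hba-a2, with 0.90 and 1.26.

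**Figure D4:**
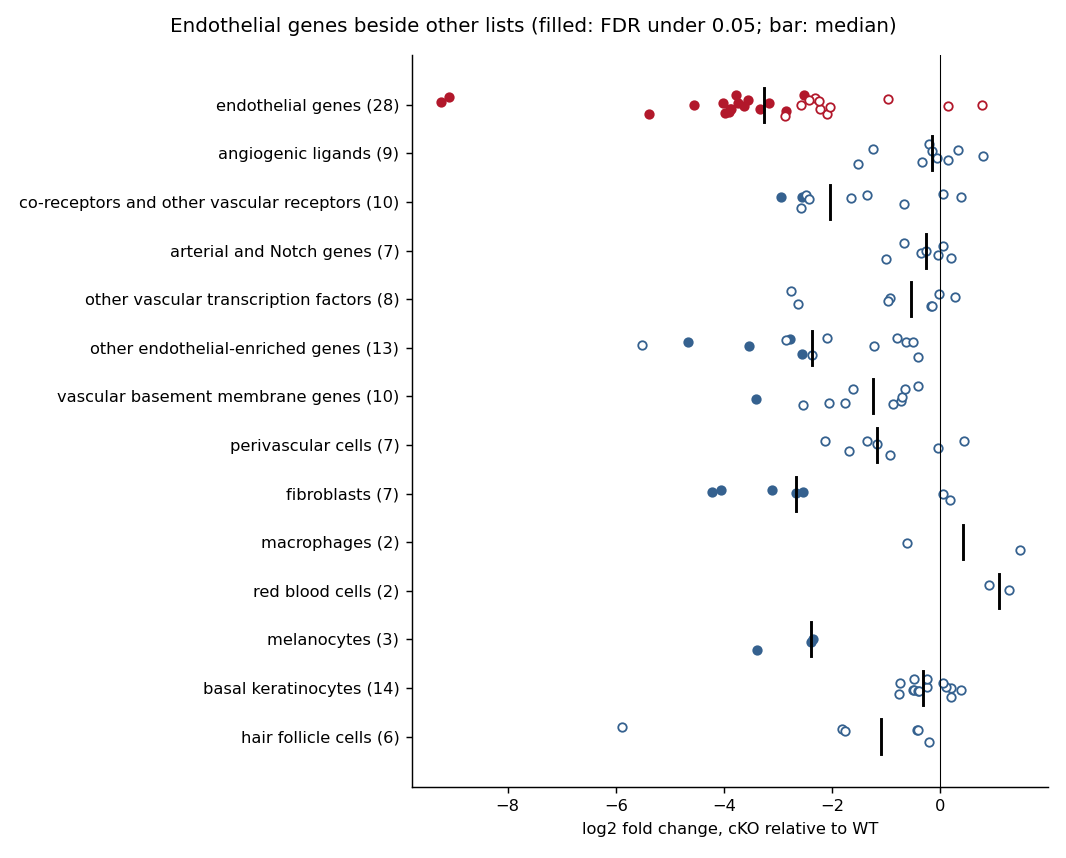
Log2 fold change of cKO relative to WT for the endothelial genes (red) and for the genes of the other lists with at least 2 analysed members (blue), with the number analysed in parentheses. Filled points had an FDR under 0.05 and black bars are medians. The endothelial median was -3.25, that of fibroblast markers -2.67 and that of basal keratinocyte genes -0.32.

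No gene of a vascular ligand passed the threshold. Over all genes only 2.15% were called lower and 0.459% higher, so a list of this size may hold no call. Of 15 angiogenic ligand genes 9 were analysed and 0 called, with 6 values below and 3 above 0, a median of -0.16 and 1 at an unadjusted p under 0.05. Vegfa, the ligand of Flt1 and Kdr that keratinocytes make in wounds, had -0.16 at 29.5 CPM in the authors' deposited table. Angpt2, the angiopoietin released by activated endothelium, had -1.25 at 6.07 CPM, and Cxcl12 had -1.51. Adm, the ligand of Calcrl and Ramp2, had 0.14, and Vegfb and Edn1 had 0.79 and -0.35. The authors' deposited table gave all of them an FDR over 0.05. No gene of the whole comparison with a change under 2.20 on the log2 scale was called, so smaller differences were not detectable here.

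Most analysed receptors and all analysed other endothelial-enriched genes outside the 42 had values below 0, against 49.7% of all genes. Over all genes 2.15% were called lower. Of 15 co-receptors and other vascular receptors 10 were analysed and 2 called lower (median -2.04), with 8 values below and 2 above 0. Those above were Bmpr2 and Ackr3, with 0.38 at 1025 CPM and 0.05 at 4.82 CPM in the authors' deposited table. The authors' deposited table showed falls of 2.94 for Procr, the endothelial protein C receptor, and of 2.56 for Plxnd1, a semaphorin receptor of vessels (FDR 0.0123 and 0.0355). Ednrb and Acvrl1, the latter a BMP receptor that works with endoglin, had -2.58 and -2.49 without passing in the authors' deposited table. Of 20 other endothelial-enriched genes 13 were analysed, all with values below 0, and 4 were called lower (median -2.37). These were Gimap6, Gpihbp1, which carries lipoprotein lipase to the capillary lumen, Sparcl1 and the water channel gene Aqp1, with falls of 4.66, 3.53, 2.78 and 2.55 in the authors' deposited table. Of 15 further vascular transcription factors 8 were analysed and 0 called (median -0.55), with 2 at an unadjusted p under 0.05. Those were Mef2c and Nr2f2, a regulator of venous identity, with -2.76 and -2.64 (FDR 0.0600 and 0.0742, the authors' deposited table). Values lay below 0 for 7 of the 8, and Sox7 had 0.27 in the authors' deposited table.

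Among the 229 genes called lower in the whole comparison, the 17 endothelial genes made up 7.42%, and with the called genes of the other vascular lists 10.5%. For comparison, of all 10664 genes 28 were endothelial genes of the list and 57 were on the other vascular lists. Of the 100 genes with the smallest p-values 9 were endothelial genes of the list (Flt1, Cdh5, Eng, Adgrf5, Adgrl4, Selp, Mmrn1, Lyve1 and Ccl21a). The called genes lay on 11 chromosomes, with at most 3 on any of them (Eng, Cd93 and Sox18 on chromosome 2).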

How the data were processed

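RNA of sorted wound cells was sequenced in 3 WT and 2 cKO samples. The submitters' processing notes name Trimmomatic 0.35, STAR 2.6.0c, RSEM and the build mm10. The authors deposited, for each of 10664 genes, per the file headers, the log2 fold change, p-value and FDR, and the average level as log2 CPM. The tool behind them, the libraries used and their depth are not given in the sources used here. The table's title speaks of TPM, a filter and a pseudocount. Text notes beside 2 negative entries of a second sheet call them higher in the knockout, so fold changes were turned to cKO relative to WT. The base of the deposited log2 level was read as 2 because the levels then sum to 1.00436e+06 CPM. FDR values recomputed from the deposited p-values differed by at most 7.17e-15.

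The genes, roles and lists were chosen with earlier results of these data known, so no list was tested. Calls are the authors' FDR under 0.05. The genes that could be named were all 42 symbols and, for each other list, up to 4 with the smallest p, with Nfe2l2 and Itga6. Fbln1, Postn, Vegfa, Adm, Vps25, Fpgs, Agpat2, Ddx3y, Xist, Rgs5, Notch3 and Ndufa4l2 were chosen after their values were seen. Bmpr2, Ackr3, Sox7, Notch1, Jag1, Cd200 and Lhx2 were also chosen after their values were seen. So were the pairs of genes whose fold changes were compared. Implied levels solve the mean level and the fold for both genotypes, and implied standard errors divide the fold change by the normal quantile of the p-value. Both, and the adjustments, were tested on simulated data. Symbols came from GENCODE vM21 for 10655 genes. Promoters came from RefSeq. Computing used SciPy 1.17.1, pandas 2.3.3 and NumPy 2.4.6 under Python 3.11.15, with matplotlib 3.10.9 for plots. The labels do not say whether each sample is a separate animal, so the spread behind the p-values may be technical.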

Additional observations from a re-analysis of the deposited data

How the results depend on the processing

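Of the 17 endothelial genes called lower, 12 remained at a threshold of 0.01, 10 under the Benjamini-Yekutieli adjustment, 11 of 18 tested with genes under 5 CPM left out and 15 of 26 with near-floor genes left out. A filter of 1 CPM and a fold threshold of 1 on the log2 scale left 17. Flt1, Cdh5, Eng, Adgrf5, Adgrl4, Mmrn1 and Lyve1 kept their call under all 6 settings. Selp, Ccl21a and Prox1 kept theirs in each setting in which they were tested. Selp and Ccl21a were left out as near-floor genes, and Prox1, at 4.996 CPM, by the 5 CPM filter. The calls lost under the Benjamini-Yekutieli adjustment were Kdr, Esam, Emcn, Cd93, Vwf, Sox18 and Ecscr. Over all genes, the calls of lower and higher genes went from 229 and 49 to 125 and 27 at 0.01, 98 and 18 under Benjamini-Yekutieli, and 88 and 16 with the 5 CPM filter, which are stricter by construction or test fewer genes. The median of the endothelial genes lay between -3.36 and -2.87 without genes of blood cells, lymphatic genes, low or near-floor genes, and relative to all genes or to keratinocyte genes. Implied WT levels with samples weighted alike were 0.834 to 1.05 times those given. No paired analysis was possible because values per sample were not analysed here, and for the same reason no replicate could be left out.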

Other observations

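Vessel-associated matrix, arterial and hair follicle genes gave further values. Over all genes 2.15% were called lower and 0.459% higher, so lists of 6 to 10 genes may hold no call. Of 10 genes of the vascular basement membrane, all analysed and all with values below 0, 1 was called lower (median -1.25, and 5 at an unadjusted p under 0.05). That gene, Col15a1, encodes a collagen of basement membrane zones and fell by 3.40 at 10.4 CPM (FDR 0.00379, the authors' deposited table). Per the authors' deposited table, Nid2, Nid1 and Hspg2, which fibroblasts and epithelium also make, had -2.54, -2.07 and -1.76. Of 13 arterial and Notch genes 7 were analysed and 0 called (median -0.26, and 0 at an unadjusted p under 0.05). Their values lay below 0 for 5 genes and above 0 for 2. Per the authors' deposited table, Jag2, Hes1, Unc5b and Ephb4 had -1.01, -0.68, -0.36 and -0.26, and Notch1 and Jag1 had 0.19 and 0.05. Of 10 hair follicle genes 6 were analysed, all with values below 0, and 0 were called (median -1.09, and 3 at an unadjusted p under 0.05). Krt27, Lgr5 and Lef1 had -5.89, -1.82 and -1.76 in the authors' deposited table, at mean levels of 0.797, 8.59 and 3.74 CPM. The implied cKO level of Krt27 was 0.0265 CPM, near the floor, so the size of its fold change is not reliable. Sox9, Cd200 and Lhx2 had -0.43, -0.41 and -0.21 in the authors' deposited table.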
